A study of Homo sapiens with 2 samples.

Results

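The replication-dependent histone genes were followed through FAIRE-seq peak lists of HepG2, a human cell line derived from a liver cancer. In FAIRE, fixed and sonicated chromatin is extracted so that DNA free of nucleosomes is collected and sequenced, and peaks mark open chromatin. Lentiviral particles delivered a scrambled small hairpin RNA to the control cells and a small hairpin RNA targeting the orphan nuclear receptor NR2E3 to the depleted cells. Both grew with fetal bovine serum, in EMEM according to the labels and in MEMα according to the study's methods. Each group had 1 library. Members were all peaks assigned to a protein-coding gene with a histone cluster symbol (HIST1H to HIST4H in these lists), which gave 102 of 56159 peaks and 43 of the 71 such genes that RefSeq (GRCh38.p14) carries. Of the 102 peaks, 41 were common to both libraries, 17 were specific to the control library and 44 were specific to the NR2E3-depleted library. Over all 56159 peaks the same lists held 14368, 16236 and 25555, so the depleted-specific list was the largest there too.

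Replication-dependent histones package newly made DNA, and their genes are switched on together in S phase. Their mRNAs end in a stem-loop instead of a poly(A) tail, and the genes lie in clusters where the coactivator NPAT gathers in a nuclear body. The core histones H2A, H2B, H3 and H4 form the nucleosome, and the linker histone H1 binds where DNA enters and leaves it. Many H2A and H2B genes are transcribed away from each other from 1 shared promoter. On chromosome 6 there were 55 of the 71 genes, between 25726063 and 27893891 (hg38), with 15 on chromosome 1 and 1 on chromosome 12.

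The score in each list was a whole multiple of 0.407 in the common and control-specific lists and of 0.507 in the depleted-specific list, taken here as the worth of 1 sequencing tag. If scores are scaled to 10 M (mega) tags, as the peak caller does unless told otherwise, depth was 24.6 M tags for control and 19.7 M tags for depleted cells. Common peaks therefore carry scores on the control scale, and their scores in the depleted library were not analysed here. Of 10 liver markers, 9 had a peak assigned and 7 had a promoter peak, with ALB, AFP and TTR lacking the latter. Of 6 blood and neural markers, 3 had a peak assigned and 0 had a promoter peak, and the background was a promoter peak at 28.7% of 20052 protein-coding genes. With 1 library per group there was no replicate check and no test between conditions, and every interval below is a 95% interval that covers counting error only.

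The sequences before the start sites are shown for the genes with the strongest promoter peaks of each core class, and for the 2 genes with the strongest depleted-specific promoter peaks. All are RefSeq sequence (GRCh38.p14), 5′ to 3′ in the direction of the named gene, ending at the base before its start. Capitals mark 6 motifs searched on both strands: CCAAT, bound by NFY; TATAAA, the TATA box; GGGCGG, bound by Sp1; the octamer ATTTGCAT, bound by OCT1 (POU2F1); GGTCCG, the core of the H4 promoter element; and AAACACA, the H1 box. No printed match overlapped another motif. The HIST1H2AC sequence (chr6:26123927-26124171, plus strand) is the whole stretch between the HIST1H2AC and HIST1H2BC starts. The others are HIST2H2AB (chr1:149887966-149888065, minus strand), HIST1H3C (chr6:26045284-26045383, plus strand), HIST1H4E (chr6:26204510-26204609, plus strand), HIST1H4D (chr6:26189113-26189212, minus strand), HIST1H4H (chr6:26285535-26285684, minus strand) and HIST1H1E (chr6:26156179-26156328, plus strand).
HIST1H2AC: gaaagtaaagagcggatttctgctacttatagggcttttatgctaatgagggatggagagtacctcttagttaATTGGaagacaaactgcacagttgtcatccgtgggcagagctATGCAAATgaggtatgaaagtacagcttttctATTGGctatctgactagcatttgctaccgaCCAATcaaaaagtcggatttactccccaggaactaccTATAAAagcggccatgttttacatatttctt
HIST2H2AB: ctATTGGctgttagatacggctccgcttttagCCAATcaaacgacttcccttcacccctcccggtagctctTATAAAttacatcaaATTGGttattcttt
HIST1H3C: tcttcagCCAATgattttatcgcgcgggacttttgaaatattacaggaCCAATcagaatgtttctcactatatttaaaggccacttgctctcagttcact
HIST1H4E: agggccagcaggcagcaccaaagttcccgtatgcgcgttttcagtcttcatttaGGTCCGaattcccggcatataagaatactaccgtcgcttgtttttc
HIST1H4D: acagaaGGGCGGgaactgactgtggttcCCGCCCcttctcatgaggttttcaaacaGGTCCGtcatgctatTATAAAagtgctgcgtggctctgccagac
HIST1H4H: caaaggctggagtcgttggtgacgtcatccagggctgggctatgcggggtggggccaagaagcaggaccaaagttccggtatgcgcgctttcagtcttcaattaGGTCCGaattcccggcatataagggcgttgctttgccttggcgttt
HIST1H1E: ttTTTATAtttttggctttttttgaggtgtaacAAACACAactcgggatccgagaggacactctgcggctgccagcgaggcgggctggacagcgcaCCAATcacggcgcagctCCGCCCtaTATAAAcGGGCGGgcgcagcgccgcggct

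The first comparison asked at which histone genes open chromatin was called near the start site. A peak of any list was centred within 500 bp of the start in 38 of 71 genes (53.5%, 41.3 to 65.5), against a background of 35.9% of 15842 protein-coding genes. The peak was a common one in 30 of the 71 genes, where the background was 19.7%. In 3 genes the peaks were control-specific alone (background 3.16%), in 4 they were depleted-specific alone (background 12.6%), and HIST1H4H had 1 of each kind. Set against the 878 other protein-coding genes of chromosome 6, the 55 histone genes there had a peak 16.9 points more often (2.47 to 29.9) and a common peak 19.6 points more often (5.50 to 33.8). For depleted-specific peaks alone the difference on chromosome 6 was -3.78 points (-9.50 to 6.73), an interval that includes 0. In the chromosome 6 stretch that holds the histone genes, 11 of 18 other protein-coding genes had a peak (61.1%, 35.7 to 82.7). The histone genes there had one in 35 of 55 (63.6%). DNA replication genes had one in 23 of 32, and ribosomal protein genes in 52 of 65. A common peak stood at 5 of 18, 11 of 32 and 33 of 65 of these genes, and at 27 of the 55 histone genes. These differences were not tested. Here starts are those of RefSeq, whereas the promoter classes and distances given further on use the starts of the deposited annotation. For the 33 peaks classed as histone promoter peaks, these starts differed by 0 to 93 bp (median 27.0). Other peaks can differ more. A depleted-specific peak lay -205 bp from the RefSeq start of HIST1H3E but -1182 bp from the deposited one. For HIST1H3D these distances were -68 and 1939 bp. HIST1H3D was counted among the genes with a common peak, because another of its RefSeq starts lay near the common peak of HIST1H2AD. Genes that share a promoter share its peak, so the genes counted are not independent.

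**Figure D1:**
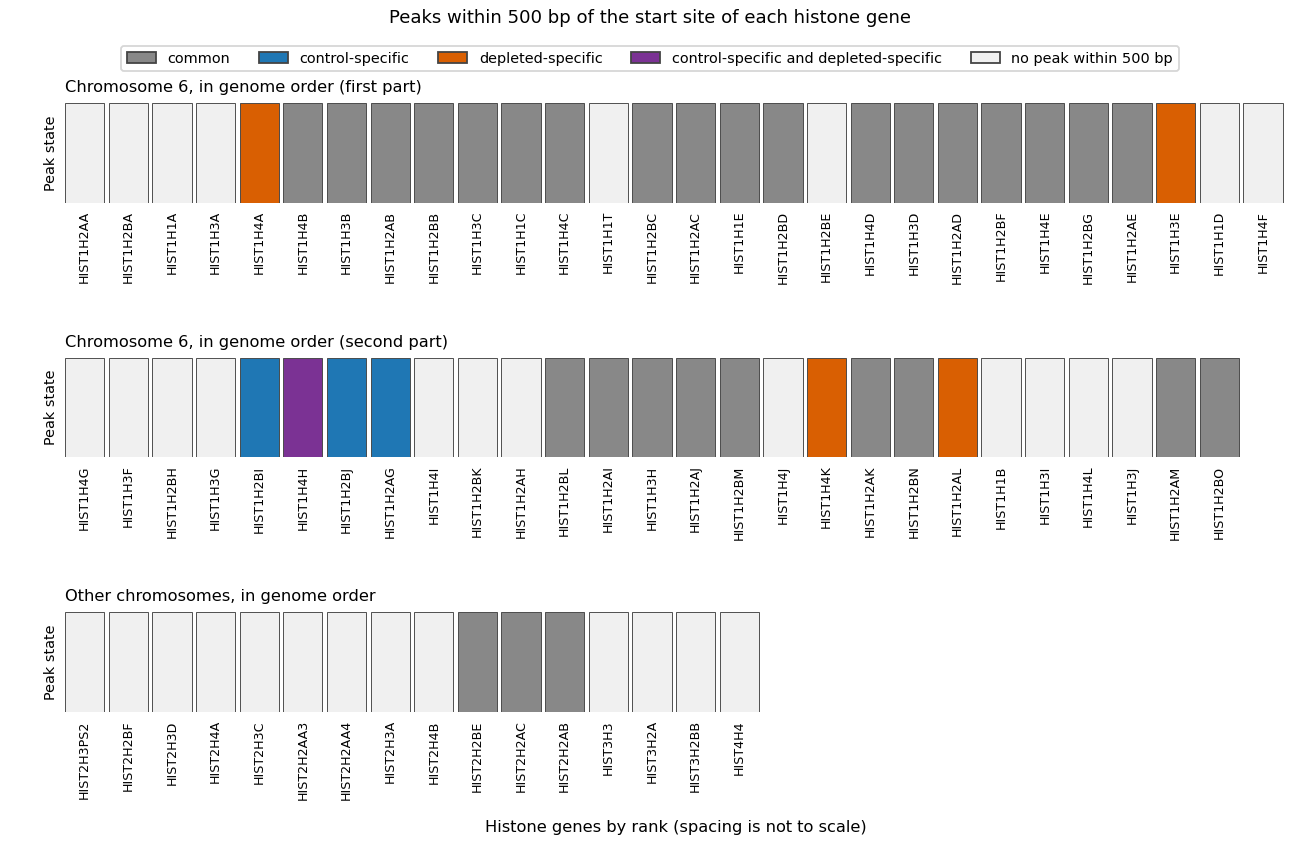
Each box is 1 of the 71 histone genes in genome order, coloured by the lists of the peaks centred within 500 bp of its start site (a common peak takes precedence). Of the 71 genes, 30 had a common peak, 3 a control-specific peak alone, 4 a depleted-specific peak alone, 1 a specific peak of each kind and 33 no peak. HIST1H3D and HIST1H2AE, shown as common, each also had a depleted-specific peak.

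By class, H2A and H2B, the pair that flanks the H3-H4 core of the nucleosome, had a start-site peak most often, in 12 of 17 and 12 of 18 genes. H4 had one in 7 of 15 genes, H3 in 5 of 15 and the linker histone H1 in 2 of 6. The intervals of these shares overlap: the H2A share of 70.6% runs from 44.0 to 89.7, and the H3 share of 33.3% from 11.8 to 61.6.

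By place, 22 of the 32 genes between 26.0 and 26.3 Mb of chromosome 6 had a peak, and 11 of the 16 near 27.8 Mb did. In the small group near 27.1 Mb, 2 of 5 genes had a peak, HIST1H2AG and HIST1H2BJ, and that shared peak was control-specific. On chromosome 1, HIST2H2BE, HIST2H2AC and HIST2H2AB had common peaks, and the other 9 HIST2 genes had none. Reads of 6 of those 9 are uncertain, because the genes stand as duplicated copies: the 300-base promoter entries of HIST2H4A and HIST2H4B are identical, and the longest identical stretch was 299 bases for HIST2H2AA3 and HIST2H2AA4 and 296 for HIST2H3A and HIST2H3C. Neither the 3 HIST3 genes nor HIST4H4 had a start-site peak. The genes known for germ-cell expression, HIST1H2AA, HIST1H2BA, HIST1H1T and HIST3H3, were all without one.

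Of the H2A and H2B genes, 24 formed 12 divergent pairs whose starts lay 194 to 248 bp apart. A peak was centred between both starts in 9 of the 12 pairs. It was common in 8 pairs, control-specific in 1 (HIST1H2AG and HIST1H2BJ) and depleted-specific in 0. Among other protein-coding promoter peaks within 250 bp of a start, 51.1% were common, 9.75% control-specific and 39.1% depleted-specific. A count of 9 peaks is too small to tell divergent promoters from others. The strongest lay between HIST1H2BC and HIST1H2AC (chr6:26123852-26124152, score 12.2), covering 226 of the 245 bases printed above. The next lay between HIST1H2BN and HIST1H2AK (chr6:27838353-27838653, score 11.0), and then between HIST1H2AE and HIST1H2BG (chr6:26216643-26216943, score 9.35). HIST1H2AA with HIST1H2BA, HIST1H2AH with HIST1H2BK, and HIST3H2A with HIST3H2BB had no peak within 500 bp. The pairs were examined after the peaks had been seen, and they carry no test.

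The second comparison asked how the promoter peaks, as the deposited annotation classes them (a window around an annotated start), fell into the lists. There were 33 such histone peaks at 29 of the 71 genes. Of these, 20 were common (60.6%, 42.1 to 77.1; background 48.9% of 6392 protein-coding promoter peaks), 4 were control-specific (12.1%, 3.40 to 28.2; background 12.0%) and 9 were depleted-specific (27.3%, 13.3 to 45.5; background 39.0%). The depleted-specific share was 11.8 points lower than in the 6359 promoter peaks of other protein-coding genes, with an interval of the difference, histone minus other, from -25.8 to 6.47. On chromosome 6, which held 31 of the 33 peaks, the share at other genes was 31.7%, and the difference was -4.48 points (-19.1 to 14.3) for all 33 histone peaks and -2.72 points for those 31. At this number of peaks no difference from other genes was detectable in any of the 3 lists.

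**Figure D2:**
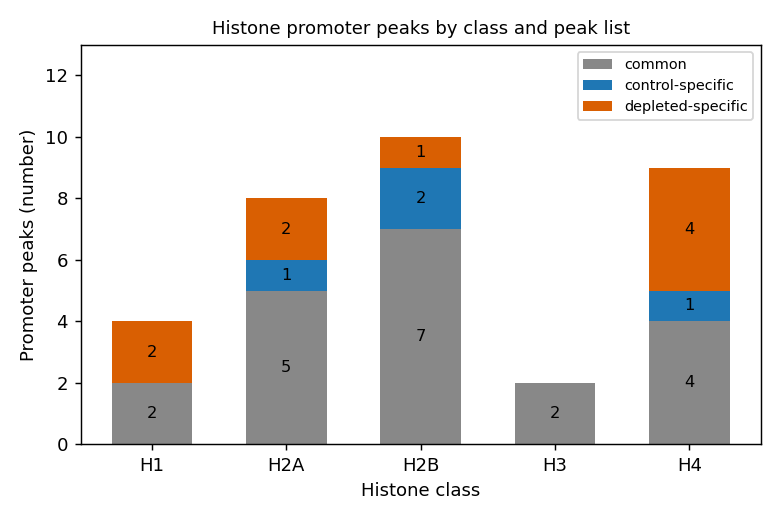
Bars give the number of promoter peaks (y axis) of each histone class (x axis), stacked by peak list, with the count in each segment. Promoter peaks are those so classed in the deposited annotation, which leaves out depleted-specific peaks near RefSeq starts of HIST1H3D and HIST1H3E. H2B had the most common peaks (7 of 10), H4 the most depleted-specific peaks (4 of 9, 2 of them at HIST1H4H), and both H3 peaks so classed were common. Over all protein-coding promoter peaks, 48.9% were common and 39.0% depleted-specific.

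By class, the common promoter peaks numbered 5 at H2A, 7 at H2B, 2 at H3, 4 at H4 and 2 at H1 genes. The depleted-specific ones numbered 4 at H4, 2 at H2A, 2 at H1, 1 at H2B and 0 at H3 genes. The control-specific ones were 2 at H2B, 1 at H2A and 1 at H4 genes. The background shares were 48.9% common, 12.0% control-specific and 39.0% depleted-specific. Of the 9 H4 promoter peaks 4 were depleted-specific, 2 of them at the single gene HIST1H4H. With so few peaks per class, differences between classes were not tested. These counts leave out peaks near RefSeq starts that the deposited annotation does not class as promoter. Among these, HIST1H3E had a depleted-specific peak of 18 tags at -205 bp from its RefSeq start (-1182 bp in the deposited annotation). HIST1H3D had a depleted-specific peak of 13 tags at -68 bp from a RefSeq start (1939 bp in the deposited annotation). Promoter peaks were a larger part of the histone peaks (33 of 102, 32.4%, 23.4 to 42.3) than of the peaks assigned to other protein-coding genes (15.3%).

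Among the common peaks, the 20 scores ran from 6.10 (15 tags) to 12.2 (30 tags) with a median of 8.54. Single peaks rested on few tags: 30 tags carry a Poisson interval of 20.2 to 42.8, and 15 tags one of 8.40 to 24.7. The median for other protein-coding common promoter peaks was 6.91, so the histone median was 1.63 higher, and 74.0% of those other peaks scored below it. The order-statistic interval of the histone median ran from 7.32 to 9.76. On chromosome 6, which held 18 of the 20 peaks, the median at other genes was 7.32, equal to the lower limit of that interval, and the difference in medians was 1.22. This is a comparison of levels on the control scale and says nothing of the depleted library.

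At H2B genes the strongest common promoter peaks were those of HIST1H2BC (30 tags), HIST1H2BN (27 tags) and HIST1H2BD (chr6:26157837-26158137, 25 tags). At H2A genes they were those of HIST2H2AB (chr1:149887913-149888213, 29 tags), HIST1H2AE (23 tags) and HIST1H2AD (chr6:26199256-26199556, 21 tags). The HIST2H2AB peak covers all 100 bases printed, with 3 CCAAT boxes and a TATA box. The H3 class, whose tails carry many of the best known histone marks, had HIST1H3C (chr6:26045195-26045495, 21 tags) and HIST1H3B (chr6:26032124-26032424, 20 tags). At H4 genes they were HIST1H4D (chr6:26188991-26189291) and HIST1H4E (chr6:26204361-26204661), each with 24 tags, and HIST1H4C (chr6:26103659-26103959) with 18. The H1 class had HIST1H1C (chr6:26056373-26056673, 18 tags) and HIST1H1E (chr6:26155874-26156174, 15 tags). The tag intervals of neighbours in each of these orders overlap.

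All 20 common promoter peaks were centred upstream of the start of the gene they were assigned to. Their centres lay between -307 and -6 bp from it, with a median of -125 bp and quartiles of -141 and -92.8 bp, so 19 of 20 fell within 250 bp (83.9% among other protein-coding common promoter peaks). The specific peaks were spread more widely: 5 of 13 lay within 250 bp, 1 of 4 control-specific and 4 of 9 depleted-specific. For other protein-coding genes these shares were 64.9% and 80.1%.

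**Figure D3:**
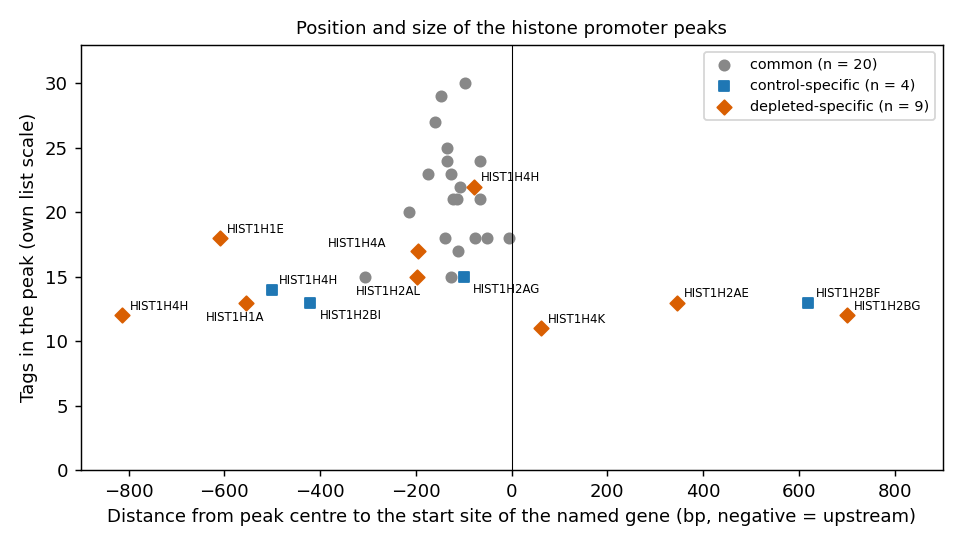
Each point is 1 of the 33 histone promoter peaks, by the distance of its centre from the start site of the gene named (x axis, bp, upstream negative) and by its tags (y axis; control library for common peaks, own library for specific peaks), with specific peaks named. The common peaks sit between -307 and -6 bp with 15 to 30 tags, whereas specific peaks reach -813 and 700 bp and 1 of them, at HIST1H4H, exceeds 20 tags.

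Within 250 bp of the start, 19 of 24 histone promoter peaks were common and 4 (16.7%, 4.74 to 37.4) were depleted-specific, against 39.1% of 5095 peaks at other protein-coding genes. The difference, histone minus other, was -22.4 points (-34.4 to -1.67) for depleted-specific and 28.0 points (6.66 to 41.8) for common peaks. On chromosome 6 alone these were -11.7 points (-25.7 to 10.9) and 18.9 points (-4.30 to 34.8), and both intervals include 0. This window was chosen after the positions had been seen, so the intervals are a description. They count only peaks classed as promoter in the deposited annotation. Left out were depleted-specific peaks of HIST1H3D and HIST1H3E, at -68 and -205 bp from RefSeq starts, and a common HIST1H3H peak at 186 bp. The differences with those peaks included were not calculated.

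HIST1H4H, which encodes core histone H4, held the strongest depleted-specific promoter peak (chr6:26285428-26285728, score 11.2). It had 22 tags in the depleted library (13.8 to 33.3), was centred 79 bp before the start in the deposited annotation, at -44 bp from the RefSeq start where the printed bases end, and covered all 150 bases printed above. The control list instead had a peak of 14 tags (chr6:26285850-26286150), centred at -501 bp by the deposited annotation and at -466 bp by RefSeq. A weaker depleted-specific peak of 12 tags lay at -813 bp, 312 bp from that control peak. HIST1H4H was also the histone gene with the most peaks of any annotation class, 14, of which 9 were depleted-specific, 2 control-specific and 3 common. Over all genes, 25555 of 56159 peaks were depleted-specific. Of the HIST1H4H peaks, 7 depleted-specific, 1 control-specific and 3 common ones were intergenic and upstream, at distances given further on. HIST1H4H is the last histone gene of the 26.0 to 26.3 Mb group, and the part of this position in its count was not tested.

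The other H4 genes with a depleted-specific promoter peak were HIST1H4A (chr6:26021334-26021634, 17 tags, -195 bp) and HIST1H4K (chr6:27831316-27831616, 11 tags, 61 bp after the start). No control-library peak was centred within 500 bp of either peak. Among the linker histones, HIST1H1E had a depleted-specific peak (chr6:26155572-26155872, 18 tags) centred at -609 bp from the start and 302 bp from its common peak. Neither of these peaks covered any of the 150 bases printed for HIST1H1E, where the H1 box and TATA box stand. HIST1H1A had a depleted-specific peak of 13 tags at -555 bp (chr6:26018217-26018517).

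Among H2A genes, HIST1H2AL had a depleted-specific peak of 15 tags at -197 bp (chr6:27864982-27865282), 2421 bp from the nearest peak of the control library. The remaining pair flanked the divergent promoter of HIST1H2AE and HIST1H2BG, which itself had a common peak: 13 tags at 345 bp after the start of HIST1H2AE (chr6:26217115-26217415) and 12 tags at 700 bp after that of HIST1H2BG (chr6:26215794-26216094). The first is classed as promoter of HIST1H2BG and the second of HIST1H2AE, because the upstream window of each gene runs through its partner.

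The 4 control-specific promoter peaks had 13 to 15 tags. Those of HIST1H2AG (chr6:27132788-27133088, 15 tags, -100 bp) and HIST1H4H have been given. The others were 13 tags at -420 bp of HIST1H2BI (chr6:26272406-26272706) and 13 tags at 620 bp after the start of HIST1H2BF (chr6:26200029-26200329). The HIST1H2BF peak is classed as promoter of its divergent partner HIST1H2AD, and the start they share had a common peak. Of the 9 depleted-specific promoter peaks, 6 lay within 1000 bp of a control-library peak, compared with 11.1% of the depleted-specific promoter peaks at other protein-coding genes. For control-specific peaks it was 2 of 4, compared with 27.8%. The histone clusters were dense in peaks, with 186 and 220 per Mb in the 26.0 to 26.3 Mb and 27.8 Mb groups against 27.9 per Mb over chromosome 6, and the part of this density in the short distances was not tested.

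Genes with related demands were compared over the same lists. Genes of cytoplasmic ribosomal proteins, which are also highly expressed in growing cells, had 38 common, 6 control-specific and 14 depleted-specific promoter peaks. The depleted-specific share was 24.1% (13.9 to 37.2), and the histone share differed from it by 3.13 points (-16.0 to 24.1). DNA replication genes, active in the same phase of the cell cycle, had 15 common, 2 control-specific and 11 depleted-specific promoter peaks (39.3%, 21.5 to 59.4), with a difference of -12.0 points (-36.5 to 13.5). The 15 promoter peaks of other protein-coding genes in the same stretch of chromosome 6 were 8 common, 5 control-specific and 2 depleted-specific. The histone share was 13.9 points above theirs, with an interval from -16.6 to 35.6. It was 6.40 points above theirs with promoter peaks taken as those within 500 bp of the start, and 1.82 points when specific peaks close to the opposite library counted as common. None of these differences was detectable with so few peaks.

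**Figure D4:**
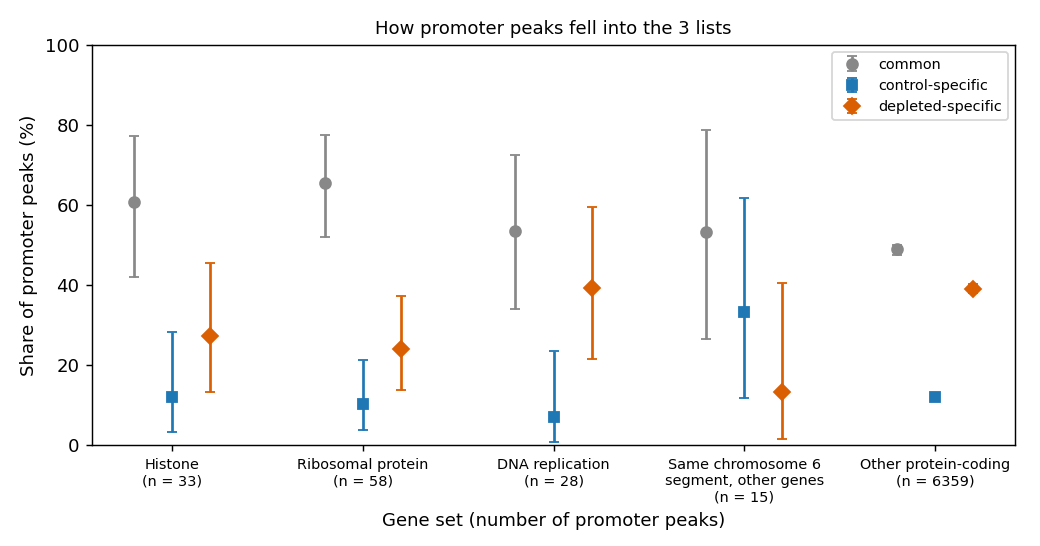
Points give the share of promoter peaks in each list (y axis, %) for 5 gene sets (x axis), with exact 95% intervals of counting error. The depleted-specific share was 27.3% for histone genes, 24.1% for ribosomal protein genes and 39.3% for DNA replication genes, and the intervals of these 3 overlap.

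Away from promoters, 69 histone peaks were listed: 21 common, 13 control-specific and 35 depleted-specific. Depleted-specific peaks outnumbered control-specific ones 2.69 times (1.39 to 5.55), compared with 1.49 times (1.46 to 1.53) in the non-promoter peaks of other protein-coding genes, a value inside the histone interval. Of the 69, 47 were intergenic and 18 lay near a transcription termination site. As histone genes are short, several of the latter lie less than 1000 bp from a start, such as the depleted-specific peak 680 bp after the HIST1H4E start (17 tags) and the common peak 639 bp after that of HIST1H4A (16 tags). At HIST1H4H, 11 non-promoter peaks lay upstream, at -7612 to -38858 bp from the start, and they were 3 common, 1 control-specific and 7 depleted-specific.

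The promoters of each class were searched for the motifs, a property that the choice of members did not use. CCAAT stood in the 250 bases before 57 of 67 histone start sites (85.1%), compared with 32.7% of 21596 protein-coding start sites. It stood in all H1, H2A, H2B and H3 promoters with an entry and in 3 of 13 H4 promoters. TATAAA was in 67.2% of histone and 9.08% of all promoters, and GGGCGG in 28.4% and 53.6%. The octamer ATTTGCAT was in 10 of 15 H2A and 14 of 18 H2B promoters, compared with 1.60% of all. GGTCCG was in 12 of 13 H4 promoters (all: 11.7%), where it began -47 to -44 bases from the start, and AAACACA in 6 of 6 H1 promoters (all: 3.81%). Divergent partners, with starts 194 to 248 bp apart, share most of their 250 bases, so the same motif can count for both genes. A match is a description of the letters and not of binding.

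**Figure D5:**
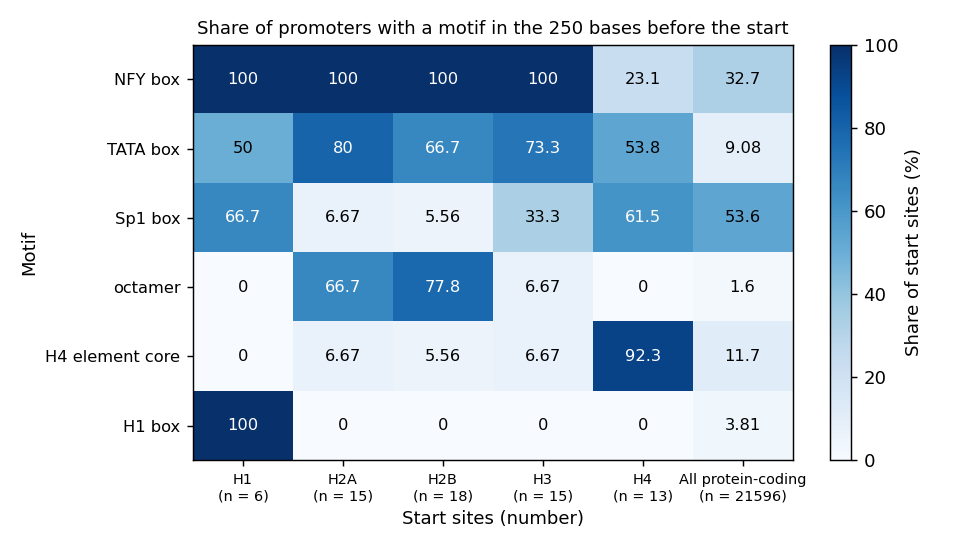
Cells give the share of start sites (%) with a motif (rows) in the 250 bases before the start, for each histone class and for all protein-coding genes (columns). The octamer stood in 66.7% of H2A and 77.8% of H2B promoters, the H4 element core in 92.3% of H4 promoters and the H1 box in 100% of H1 promoters.

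The motifs were then compared between histone genes with and without a peak. CCAAT was in 21 of 26 start sites of genes with a promoter peak of their own and in 36 of 41 of the others, a difference of -7.04 points (-28.7 to 11.9). By peaks within 500 bp of the start the difference was 2.24 points (-16.7 to 22.1), so neither interval excludes 0. Over all classes the octamer was in 19 of 36 start sites with a peak (52.8%, 35.5 to 69.6) and 6 of 31 without (19.4%, 7.45 to 37.5). Nearly all octamers stood at H2A and H2B genes, which also had peaks more often. Over H2A and H2B alone the octamer was in 18 of 23 start sites with a peak and 6 of 10 without. Divergent partners are counted separately in these shares, so the start sites are not independent. HIST1H4A and HIST1H4C had start-site peaks but no promoter entry, so they were not searched. Among the other H4 genes, the GGTCCG core was in 5 of 5 with a peak and 7 of 8 without. The 54 bases around it were closest to those of HIST1H4H in HIST1H4E (46 of 54 identical), which had a common peak. For HIST1H4D, also with a common peak, it was 28 of 54, and for HIST1H4K, with a depleted-specific one, 22 of 54. A relation of this sequence to the lists was not tested. The median GC content of the 250 bases was 42.8% for histone and 62.0% for all protein-coding start sites.

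Of 17 genes that act on histone transcription and pre-mRNA, 12 had a promoter peak: 7 a common one, 2 a control-specific one and 5 a depleted-specific one, with 2 genes counted under both kinds. The background was 28.7% of genes with a promoter peak and 11.9% with a depleted-specific one, and 5 of the 14 promoter peaks stood against the 39.0% depleted-specific share of all protein-coding promoter peaks. NPAT had no peak in any list. The depleted-specific ones stood at CASP8AP2 (13 tags, -168 bp), which encodes a protein of the NPAT nuclear body, at LSM10 (15 tags, -46 bp) and LSM11 (12 tags, -138 bp), which belong to the U7 particle that cuts histone pre-mRNA, at POU2F1 (12 tags, -40 bp), which encodes OCT1, and at NFYC (19 tags, -108 bp), an NFY subunit that also had a common peak. The control-specific ones stood at SLBP (12 tags, -436 bp), the stem-loop binding protein, and at E2F1 (15 tags, -690 bp), beside a common E2F1 peak of 23 tags. HINFP, which binds H4 promoters, had a common peak of 13 tags, and NFYA one of 26 tags.

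Replication-independent variants and chaperones were also read from the lists. The background was the same, 28.7% of genes with a promoter peak and 11.9% with a depleted-specific one. Of 12 variant genes, 5 had a promoter peak: H2AX, H2AZ2, H3-3B and CENPA had common ones, and H2AZ1, which encodes H2A.Z, had a depleted-specific one (15 tags, -95 bp). Of 14 chaperone genes, 8 had a promoter peak, with common ones at ASF1A, CHAF1A, DAXX, HJURP, NASP and SUPT16H. Depleted-specific ones stood at CHAF1B (15 tags, -149 bp), a subunit of the assembly factor CAF-1, and NAP1L4 (20 tags, -75 bp). The differences of these counts from the background were not tested.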

How the data were processed

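FAIRE-seq was measured in 1 control and 1 NR2E3-depleted HepG2 library. Per the labels, the treatment field gave the groups. Per the labels, the authors used bcl2fastq 2.17, Trimmomatic 0.39, Bowtie2 2.4.5 and SAMtools 1.14 with hg38; per the study's methods they called peaks with HOMER at a q-value of 0.05. They deposited 3 annotated lists of 300 bp peaks (common, control-specific and depleted-specific). The authors' peak score is a scaled tag number, and the deposited distance to the start site (other) is HOMER's. How common peaks were defined and whether copy number was corrected is not given in the sources used here. The members and gene lists were chosen with earlier results of these data known. Named were all histone and listed pathway genes with a specific promoter peak and the 3 top common peaks per class. Start sites within 50 bp of each other were merged; 66 of 71 histone genes had a RefSeq promoter entry. Sequence tables lack some genes, and 15842 genes were used. Older symbols in the lists were matched through RefSeq synonyms. Shares have Clopper-Pearson, differences Newcombe, tags Poisson and medians order-statistic intervals. The calculations were tested on simulated data. Software was matplotlib 3.10.9, scipy 1.17.1, pandas 2.3.3, numpy 2.4.6 and Python 3.11.15. Alternatives covered the promoter distance, a minimum of 15 tags, merging of near peaks, chromosome 6 and genes in place of peaks.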

Additional observations from a re-analysis of the deposited data

How the results depend on the processing

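No paired analysis was possible because there was a single library on either side, which also left no replicate to leave out. Of 49 recalculated values, 37 stayed within 1.5 times the count or within the interval of the value reported. The CCAAT difference of -7.04 points became 2.24 by peaks near the reference start, and both intervals include 0. The 29 histone genes with a promoter peak ran from 24 to 41 over the alternatives. The 9 depleted-specific promoter peaks became 4 with at least 15 tags, 5 when a specific peak less than 500 bp from one of the opposite library counted as common, 0 without chromosome 6 and 4 within 250 bp of the start, the last chosen after seeing the data. The 4 control-specific peaks became 2 within 500 bp of the start, 1 with at least 15 tags, 0 without chromosome 6 and 1 within 250 bp. Without chromosome 6 only 2 common peaks remained, so the share difference of -39.7 points and the score difference of 3.26 there rest on 2 peaks. The median distance of the specific peaks alone was -195 bp. The difference in depleted-specific share from other genes otherwise ran from -22.5 to -2.72 points, the last on chromosome 6 alone, and that from other genes of the chromosome 6 stretch from 1.82 to 16.9 points. A peak of 11 to 30 tags is a small count, so single list assignments are uncertain.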
